A study of Mus musculus with 3 samples.

Results

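The messenger RNAs of 45 genes that carry, store or sense zinc, iron and copper were followed through 3 untreated mammary tumours from mice of the strain FVB-MMTV-Neu. The genes were chosen by symbol from the 47480 gene symbols measured: the Slc30a and Slc39a zinc transporter families, the metallothioneins with their regulator Mtf1, the genes of iron uptake, storage, export and sensing, the haem oxygenases and the copper transporters. The rule selects by symbol, and it was drawn up with earlier results of these data known. All 3 tumours carry the rat Neu (Erbb2) transgene under the mouse mammary tumour virus promoter, which is active mainly in mammary epithelium. Per the labels' protocols they were grafted orthotopically into syngeneic hosts, grew to a diameter of 5 mm and received no treatment in the 7 days that followed, whereas the series' design text has them come from untreated MMTV-Neu mice, so the host tissue around them is uncertain. Age, further genotype and whether the donors were separate mice were not given in the sources used here. The spread between the libraries may be partly technical. There was 1 library per tumour and 1 group, so no condition was compared. The tumours are numbered 1, 2 and 3 in the order of their records. By the run names tumour 1 was sequenced in lane 1, and tumours 2 and 3 in lane 5, so that lane and the difference of tumour 1 from the others cannot be told apart.

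Cells need zinc, iron and copper as cofactors, and they are harmed by free metal. Proteins of the Slc39a (ZIP) family move zinc into the cytosol, proteins of the Slc30a (ZnT) family move it out of the cell or into vesicles and the Golgi, and metallothioneins bind zinc and copper in the cytosol. Iron reaches cells bound to transferrin, is taken up through the transferrin receptor, is stored in the ferritin shell and leaves through ferroportin. The mammary gland handles all of these metals, since milk supplies them to the young.

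Iron handling is controlled largely after transcription. The iron regulatory proteins bind a short hairpin in messenger RNAs, the iron-responsive element. In the 5′ untranslated region it blocks translation of ferritin and ferroportin, and in the 3′ untranslated region it stabilises the transferrin receptor message. The elements are shown because those found place 4 of the iron genes described below in these classes. A search of GENCODE M21 coding transcripts for a C, a stem of 5 base pairs and the loop, CNNNNNCAGTGN in DNA letters on the transcript strand, with at least 3 of 5 further pairs below the C, found 7 elements in 4 members. In the lines below the C and the loop are in capitals, and each name carries its GRCm38 position and strand.
Fth1, 5′ untranslated region, chr19:9982733-9982759, plus strand: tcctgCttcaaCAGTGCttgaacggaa
Ftl1, 5′ untranslated region, chr7:45459780-45459806, minus strand: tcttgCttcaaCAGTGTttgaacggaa
Slc40a1, 5′ untranslated region, chr1:45925466-45925492, minus strand: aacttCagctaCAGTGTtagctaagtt
Tfrc, 3′ untranslated region, chr16:32631220-32631246, plus strand: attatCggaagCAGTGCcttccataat
Tfrc, 3′ untranslated region, chr16:32631599-32631625, plus strand: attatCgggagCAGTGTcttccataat
Tfrc, 3′ untranslated region, chr16:32631664-32631690, plus strand: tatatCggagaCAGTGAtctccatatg
Tfrc, 3′ untranslated region, chr16:32631711-32631737, plus strand: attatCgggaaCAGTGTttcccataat

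The ferritin heavy and light chain elements differed at 2 positions. Of all 21065 coding genes 9 (0.0427%) held such an element in the 5′ untranslated region, 3 of them members, and 34 (0.161%) held one in the 3′ untranslated region, 1 of them a member. Elements with another loop or an imperfect stem were not counted. A member without a line above, Slc11a2 among them, may therefore still hold one, and Tfrc may hold more. A match of these letters is a description and not a measured binding site.

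Estimated counts totalled 47449153 in tumour 1, 11388769 in tumour 2 and 17147394 in tumour 3. Levels are given as CPM, the counts of a gene relative to the total of its library after that total was multiplied by its TMM factor, 1.48 in tumour 1, 0.722 in tumour 2 and 0.936 in tumour 3. Of the 45 members 34 passed a filter that asks for enough counts to compare the libraries. Of the luminal epithelial markers 10 of 10 had a count above 0 in every tumour. The same held for all adipocyte, basal epithelial, endothelial, fibroblast and skeletal muscle markers, so presence alone marks no tissue. Erbb2 was at 75.5, 104 and 93.6 CPM and the keratin gene Krt8 at 407, 734 and 1038 CPM in tumours 1, 2 and 3. Whether reads of the rat transgene are counted in Erbb2 was not examined. Markers of other tissues moved with the tumours, and their part in the results below was not tested. All 12 skeletal muscle markers had counts in each library, and their summed level was 6.19 CPM in tumour 1, 54044 CPM in tumour 2 and 24497 CPM in tumour 3, led by the muscle creatine kinase gene Ckm at 0.477, 32750.3 and 11606 CPM. Red blood cell markers summed to 188, 3377 and 1855 CPM, with Slc4a1 and Epb42 at 0 in all 3 libraries and Hbb-bs at 71.5, 217 and 242 CPM. Macrophage markers summed to 1186, 4071 and 2743 CPM, while the marker Cd68 was at 24.5, 18.3 and 22.8 CPM. The macrophage list went both ways: of 10 markers past the filter 5 were above the mean of the others in tumour 1, with a median log2 difference of −0.23. Chosen after their values were seen, C1qa at 161, 2426 and 1369 CPM led the sum in tumours 2 and 3, and Cd14 at 114, 6.09 and 24.4 CPM was highest in tumour 1. Fewer cells of a type and less RNA per cell cannot be told apart in such bulk tissue.

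Set against tumours 2 and 3, tumour 1 had far less metallothionein, ferritin light chain and haem oxygenase 1 message and far more of both iron regulatory protein genes and of the zinc importer gene Slc39a4. Of the 34 members past the filter, 3 were at least 4-fold above both other tumours in tumour 1 (8.82%, against 6.05% of all 12710 genes tested), and 4 were at least 4-fold below both (11.8%, against 8.21%). In tumour 2, 0 members were at least 4-fold above both others (0.252% of all genes) and 0 below (0.590%). In tumour 3, 0 were above (0.0787%) and 0 below (0.0787%), and for tumours 2 and 3 together the share of all genes was 0.999%. At 2-fold, 12 members were above both others in tumour 1 (35.3%, against 22.1% of all genes) and 9 were below (26.5%, against 20.7%). These are differences between single libraries, with no replicate check, and at 4-fold the members' shares in tumour 1 were near those of all genes. The same 7 members were called when the muscle list and 1 ribosomal RNA gene were taken out before scaling. That step leaves the members' own counts as they were, so the part of muscle RNA in them was not tested.

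**Figure D1:**
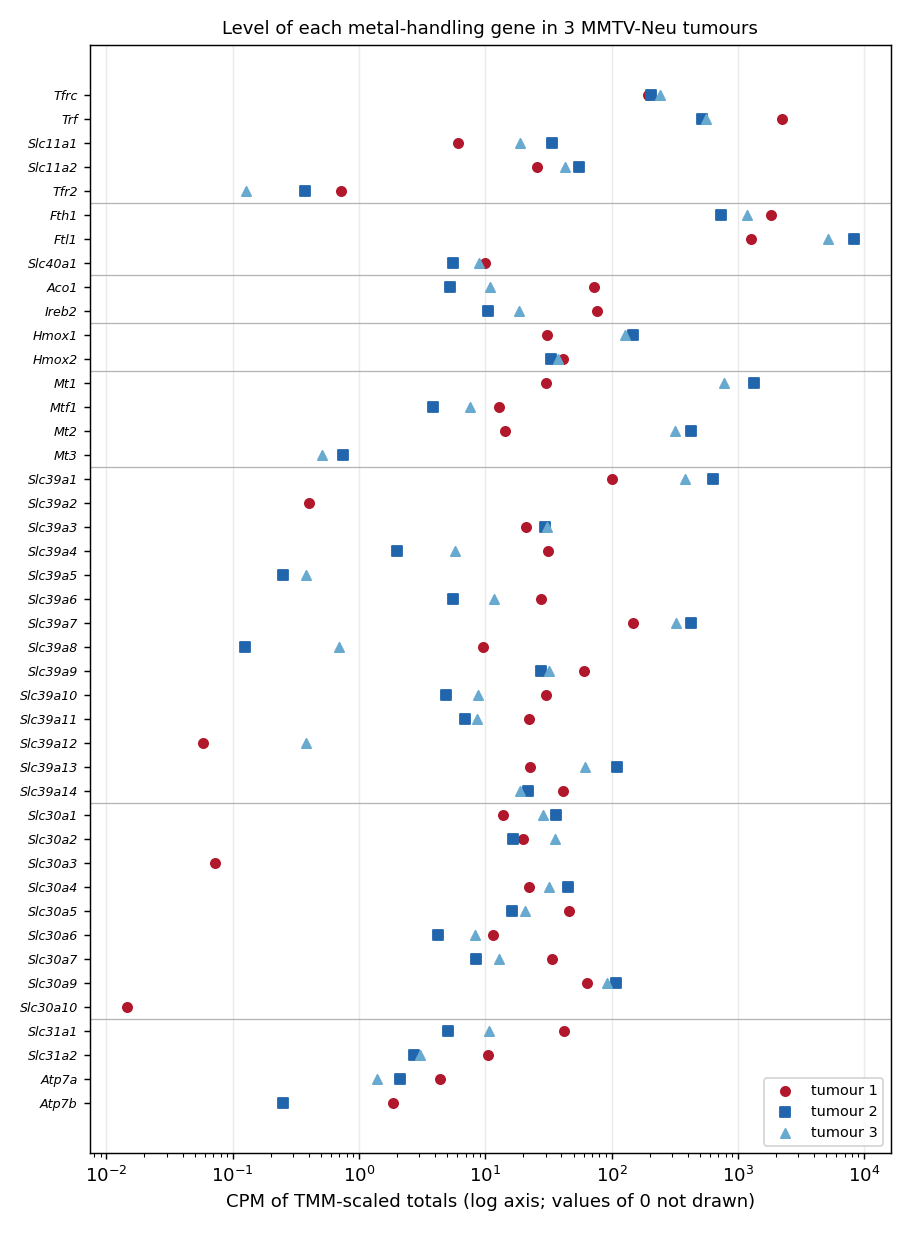
Level of each member with a count above 0, in CPM of TMM-scaled totals on a log axis, with 1 point per tumour. Members are grouped by role, with horizontal lines between iron uptake, iron storage and export, iron regulatory proteins, haem oxygenases, metallothioneins with Mtf1, Slc39a, Slc30a and copper transporters. Mt1 and Mt2 in tumour 1, at 30.2 and 14.2 CPM, stand far left of the other tumours, whereas the 3 points of Tfrc lie between 195 and 240.4 CPM.

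Of the iron uptake genes, Tfrc (chromosome 16, 32608920 to 32632794), the transferrin receptor, was the steadiest. Its level was 195 CPM in tumour 1, 205 CPM in tumour 2 and 240.4 CPM in tumour 3. The mean was 213 ± 23.8 CPM (SD, n = 3), with an SD of 0.16 on the log2 CPM scale against a median of 0.72 over all genes. Its place depended on the scaling: the log2 difference of tumour 1 from the mean of the others was −0.18, but 0.67 with library totals alone and −1.05 with a trend on GC content and transcript length removed. Trf (chromosome 9, 103204001 to 103230444), transferrin itself, which mouse mammary epithelium makes and secretes into milk, was at 2219 CPM in tumour 1 (95% Poisson interval 2208 to 2230), 520.4 CPM in tumour 2 and 562 CPM in tumour 3. Tumour 1 stood above both others, by 4.26-fold and 3.95-fold, and the tumours of lane 5 were close to each other. Liver also makes transferrin, and the hepatocyte markers were scarce: 5 of 6, 1 of 6 and 0 of 6 had a count in tumours 1, 2 and 3, with a sum of 3.01 CPM in tumour 1. The source of the Trf message was not tested. The log2 difference of Trf was 2.04 and lay between 1.94 and 2.88 over the alternatives tried, and it passed 4-fold with library totals alone, without a filter and with the GC and length trend removed.

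Slc11a1, an iron and manganese pump of the phagosomes of macrophages, was at 6.04, 33.9 and 18.9 CPM and thus lowest in tumour 1, where the macrophage markers went both ways. Slc11a2, the general iron importer DMT1, was at 25.7, 55.1 and 42.5 CPM, also lowest in tumour 1 but within 2-fold of tumour 3. Tfr2, an iron sensor of liver and erythroid cells, had 50, 3 and 2 counts and did not pass the filter.

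The ferritin chain genes differed in opposite directions. Fth1 (chromosome 19, 9980598 to 9985098), the heavy chain that oxidises iron, was at 1846, 738 and 1176 CPM in tumours 1, 2 and 3, a mean of 1253 ± 558 CPM (SD, n = 3). Ftl1 (chromosome 7, 45457944 to 45459884), the light chain that helps to form the iron core, was at 1267, 8335 and 5163 CPM, a mean of 4921 ± 3540.4 CPM. The heavy chain was highest and the light chain lowest in tumour 1. The ratio of their counts inside a library, which no scaling of libraries can change, was 1.46 in tumour 1 (95% exact binomial interval 1.44 to 1.47), 0.0885 in tumour 2 (0.0862 to 0.0909) and 0.228 in tumour 3 (0.224 to 0.231). The intervals, here and below, cover counting error only. Such ratios can still carry a bias by GC content or transcript length that differs between libraries. The log2 difference of tumour 1 from the mean of the others was 0.99 for Fth1 and −2.37 for Ftl1. With a trend on GC content and length removed it was 1.16 and −1.34. Per kilobase of the longest annotated coding transcript, Ftl1 and Fth1 were about level in tumour 1, at 1309 and 1236 CPM per kb, whereas in tumour 2 Ftl1 reached 8611 CPM per kb against 494 CPM per kb for Fth1. Ferritin genes have many near-identical copies, so these values are uncertain. The 13 other ferritin-named symbols in the files held at most 5 counts in any library, but copies under other names were not examined. Slc40a1, the iron exporter ferroportin, was low in every tumour, at 10.003, 5.59 and 8.90 CPM. The 4-fold call of Ftl1 ended with library totals alone, without a filter and with the GC and length trend removed.

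Both genes whose products bind the hairpins printed above were higher in tumour 1. Aco1 (chromosome 4, 40143081 to 40198338), which encodes the cytosolic aconitase that turns into iron regulatory protein 1 when it lacks its iron-sulfur cluster, was at 72.1 CPM in tumour 1 (70.2 to 74.2), 5.22 CPM in tumour 2 (3.76 to 7.06) and 10.9 CPM in tumour 3 (9.36 to 12.7). Ireb2 (chromosome 9, 54863789 to 54912530), iron regulatory protein 2, was at 77.2, 10.6 and 18.4 CPM. Tumour 1 exceeded tumour 2 by 13.8-fold for Aco1 and 7.30-fold for Ireb2, and tumour 3 by 6.60-fold and 4.19-fold. Within lane 5, tumour 3 exceeded tumour 2 by 2.09-fold for Aco1. The call of Ireb2 was the weaker of the pair. With DESeq2 size factors it was no longer 4-fold apart, nor after a trend on GC content and transcript length was removed from each library, when its log2 difference of tumour 1 from the mean of the others was 1.47 instead of 2.46. For Aco1 that removal gave 3.30 instead of 3.24.

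The haem oxygenases, which break haem down and free its iron, parted. Hmox1 (chromosome 8, 75093621 to 75100589), the form induced by haem and oxidative stress, was at 30.9 CPM in tumour 1 (29.6 to 32.2), 149 CPM in tumour 2 and 129 CPM in tumour 3. Hmox2, the constitutive form, was at 41.6, 33.2 and 37.8 CPM, or 37.5 ± 4.201 CPM (SD, n = 3), with an SD of 0.16 on the log2 scale, next to that of Tfrc. The count ratio of Hmox1 to Hmox2 was 0.743 in tumour 1 (0.702 to 0.786), 4.48 in tumour 2 (3.92 to 5.13) and 3.41 in tumour 3 (3.11 to 3.74). In mouse tissues, macrophages that clear red cells are a known source of Hmox1, and in tumour 1 the red blood cell sum was lowest while the macrophage markers went both ways. The part of these cells in the Hmox1 levels was not tested. With the GC and length trend removed, the log2 difference of Hmox1 was −1.65 instead of −2.16 and the 4-fold call ended, as it did with library totals alone and without a filter.

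**Figure D2:**
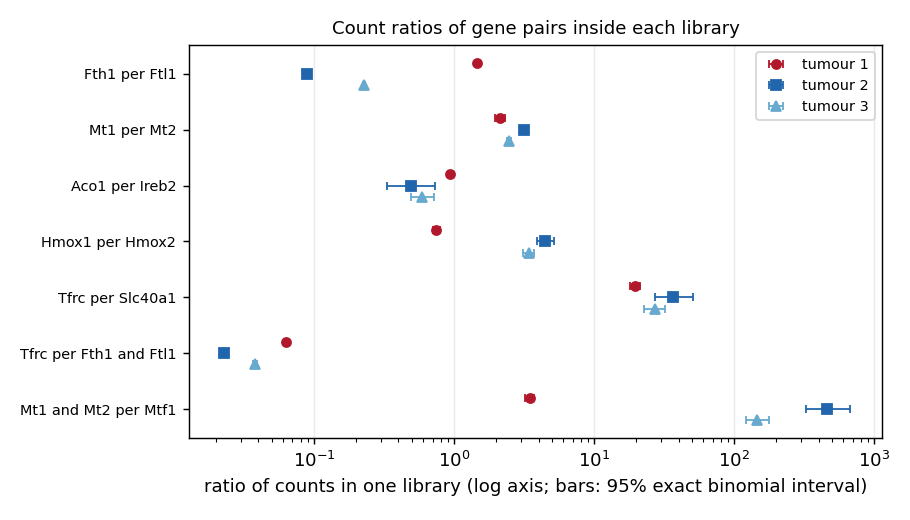
Ratio of counts of named members inside each library on a log axis, with 1 point per tumour and bars for the 95% exact binomial interval. Tumour 1 stands apart from the others in Fth1 per Ftl1 at 1.46, against 0.0885 and 0.228, and in Mt1 and Mt2 per Mtf1 at 3.47, against 459 and 146.

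The metallothioneins showed the largest differences among the members past the filter. The 4 mouse genes lie side by side on chromosome 8 within 43131 bases. Mt1 (94179082 to 94180327) was at 30.2 CPM in tumour 1 (28.9 to 31.5), 1339 CPM in tumour 2 (1314 to 1364) and 779 CPM in tumour 3 (765 to 793). Mt2 (94172664 to 94173568) was at 14.2, 428 and 318 CPM. Tumours 2 and 3 thus exceeded tumour 1 by 44.3-fold and 25.8-fold for Mt1, and by 30.1-fold and 22.3-fold for Mt2. Their ratio to each other varied much less. Mt1 had 2.13 counts for each count of Mt2 in tumour 1 (1.97 to 2.30), 3.13 in tumour 2 (3.01 to 3.25) and 2.45 in tumour 3 (2.37 to 2.53). Mt1 and Mt2 stayed at least 4-fold below both others in tumour 1 in each of the 10 scalings, filters and corrections for which the called genes were listed, among them library totals alone. Skeletal muscle also expresses metallothionein, and tumour 1 was the library with the least muscle message. The red blood cell, macrophage and endothelial sums were lowest in tumour 1 too. The part of any of these tissues in the metallothionein levels was not tested.

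Mtf1, the zinc-sensing factor that drives metallothionein transcription, went the other way and was at 12.8, 3.85 and 7.4995 CPM. For each Mtf1 count there were 3.47 counts of Mt1 and Mt2 together in tumour 1 (3.22 to 3.74), 459 in tumour 2 (323 to 675) and 146 in tumour 3 (122 to 177). Mt3, the form known from brain, had 0, 6 and 8 counts, and Mt4, the form of stratified epithelium, had 0 counts in every library, which allows at most 0.0434, 0.373 and 0.191 CPM in tumours 1, 2 and 3.

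Promoter windows of Mt1, Mt2 and Slc30a1, a zinc exporter gene that is also a known target of Mtf1, are shown because Mtf1 acts through the metal response element. Its core was searched as TGCACNC and TGCGCNC on both strands in the 250 bases before each RefSeq transcription start of GRCm38.p6, with overlapping matches allowed, and is in capitals below. All 3 genes lie on the plus strand.
Mt1, chr8:94178839-94179088: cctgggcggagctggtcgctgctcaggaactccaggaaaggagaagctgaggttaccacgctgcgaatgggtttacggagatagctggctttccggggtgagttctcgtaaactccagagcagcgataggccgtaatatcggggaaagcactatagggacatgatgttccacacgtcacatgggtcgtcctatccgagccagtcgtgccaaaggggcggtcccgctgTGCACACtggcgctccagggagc
Mt2, chr8:94172368-94172617: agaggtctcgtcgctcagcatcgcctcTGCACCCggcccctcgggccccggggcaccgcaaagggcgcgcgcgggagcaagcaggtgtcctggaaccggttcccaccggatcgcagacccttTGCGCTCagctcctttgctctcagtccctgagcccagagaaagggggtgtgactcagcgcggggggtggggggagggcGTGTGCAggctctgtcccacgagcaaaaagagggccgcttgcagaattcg
Slc30a1, chr1:191906531-191906780: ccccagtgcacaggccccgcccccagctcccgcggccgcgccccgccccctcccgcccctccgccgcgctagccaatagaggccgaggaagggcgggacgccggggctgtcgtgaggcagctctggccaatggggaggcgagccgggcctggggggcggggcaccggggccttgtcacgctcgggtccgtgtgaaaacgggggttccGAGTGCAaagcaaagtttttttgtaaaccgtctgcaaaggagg

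The window of Mt2 held 3 cores, those of Mt1 and Slc30a1 1 each. The Mt2 window ends at 94172617, short of the Mt2 start of 94172664 in GENCODE M21, so the bases between were not searched. The Mt1 window ends at 94179088, next to the first Mt1 start of 94179082 in GENCODE M21. The longest Mt1 transcript has 1085 bases, against 511 for Mt2, and bases before any later Mt1 start were not searched. The core counts of Mt1 and Mt2 therefore cannot be compared. Elements outside a window or with other letters were not counted. A match of these letters is a description and not a measured binding site. Of all 32851 windows of this length, 21.4% held at least 1 core and 1.26% at least 3. Windows were found for 37 members, and 17 of these (45.9%) had a core in at least 1 window, against 23.8% of all 27025 genes. Whether members with a core behaved alike was not tested. Slc30a10, whose window also held 3, had 1, 0 and 0 counts. Slc30a1 (chromosome 1, 191906767 to 191913247) was at 13.9, 36.3 and 28.9 CPM. Like Mt1 and Mt2 it was lowest in tumour 1, by 2.61-fold and 2.08-fold. Its log2 difference of tumour 1 from the mean of the others was −1.22. That value was −0.37 with library totals alone and −1.69 with the GC and length trend removed.

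Of the 14 zinc importer genes, 10 passed the filter, and these split. Slc39a4 (chromosome 15, 76612383 to 76617384), the importer at the surface of gut epithelium that is lost in acrodermatitis enteropathica, was at 31.4 CPM in tumour 1 (30.1 to 32.8), 1.99 CPM in tumour 2 (1.14 to 3.23) and 5.72 CPM in tumour 3 (4.60 to 7.03). Slc39a10 was at 30.1, 4.85 and 8.83 CPM, and Slc39a6, a surface importer known in the human breast as the estrogen-regulated LIV-1, was at 27.8, 5.59 and 11.6 CPM. Tumour 1 was at least 2-fold above both others for Slc39a4, Slc39a6, Slc39a10 and Slc39a11, the last at 22.2, 6.96 and 8.58 CPM. Slc39a14, an importer of zinc, iron and manganese, was at 40.9, 21.7 and 18.7 CPM, and Slc39a9, of the Golgi, at 60.1, 27.7 and 32.03 CPM. Slc39a8, which carries zinc, manganese and cadmium, did not pass the filter, with 662 counts in tumour 1 against 1 and 11 counts. Its ratio of tumour 1 to tumour 3 was 13.7 (95% exact interval 7.60 to 27.6), and its ratio to tumour 2, on the 1 count there, was 77.0 (13.8 to 3046).

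Other importer genes were lower in tumour 1. Slc39a1 (chromosome 3, 90248172 to 90253612), a broadly expressed surface importer, was at 101, 641 and 384 CPM. Slc39a7 (chromosome 17, 34028269 to 34031682), which releases zinc from the endoplasmic reticulum, was at 148, 423 and 325 CPM. Slc39a13, which moves zinc out of vesicles and is needed by connective tissue, was at 22.4, 110 and 61.8 CPM, and overlaps Psmc3 on the other strand. All 3 were at least 2-fold below both others in tumour 1. Slc39a3 was at 20.9, 29.8 and 30.8 CPM, within 2-fold in all 3 tumours. Per kilobase, Slc39a1 and Slc39a7 together made 60.7% of the summed level of the family in tumour 1, 87.0% in tumour 2 and 85.0% in tumour 3. Slc39a2 had 28, 0 and 0 counts, Slc39a5 had 0, 2 and 6 and Slc39a12 had 4, 0 and 6.

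The zinc exporter family held nearly the same total per kilobase in the 3 tumours on the TMM scale, at 47.9, 47.7 and 50.5 CPM per kb, with a different make-up. The 3 genes that load zinc into enzymes of the early secretory pathway were all highest in tumour 1. Slc30a5 was at 46.3, 16.4 and 20.5 CPM, its partner Slc30a6 at 11.4, 4.23 and 8.26 CPM, and Slc30a7 at 33.5, 8.45 and 12.8 CPM. Together they made 49.3% of the family's summed level per kilobase in tumour 1, 16.9% in tumour 2 and 23.2% in tumour 3. Per kilobase Slc30a9, a mitochondrial transporter, led the family in tumours 2 and 3, and Slc30a5 led it in tumour 1. Before division by length Slc30a9 was at 63.8, 109 and 91.3 CPM, the highest of the family in each tumour. Slc30a4, which fills vesicles and whose loss in the lethal milk mouse leaves milk short of zinc, was at 22.3, 45.5 and 32.1 CPM. Slc30a2, a vesicular exporter of secreting mammary cells, was at 20.04, 16.5 and 36.0 CPM and was highest in tumour 3, the only exporter gene past the filter for which tumour 3 was at least 2-fold above tumour 2. Slc30a3, Slc30a8 and Slc30a10 had at most 5 counts in any library.

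The copper genes were all highest in tumour 1, at low levels. Slc31a1 (chromosome 4, 62360727 to 62391769), the high-affinity copper importer CTR1, was at 42.2 CPM in tumour 1 (40.7 to 43.8), 5.10 CPM in tumour 2 (3.66 to 6.91) and 10.7 CPM in tumour 3 (9.12 to 12.4). Its neighbour Slc31a2, an intracellular copper transporter 62315 bases away, was at 10.4, 2.73 and 3.05 CPM. Atp7a, the copper pump of most tissues, was at 4.37, 2.11 and 1.40 CPM, on 17 and 22 counts in tumours 2 and 3. Atp7b, the pump of liver that also serves the secreting mammary gland, did not pass the filter with 129, 2 and 0 counts, at least 9.78-fold higher in tumour 1 than the 3 counts that a count of 0 allows in tumour 3. The span of Slc31a1 overlaps that of Cdc26 on the other strand. Whether their exons overlap was not examined, and without a strand setting reads from shared bases cannot be told apart. In all, the spans of 17 members overlap a gene on the other strand, and those of 9 overlap one on the same strand.

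**Figure D3:**
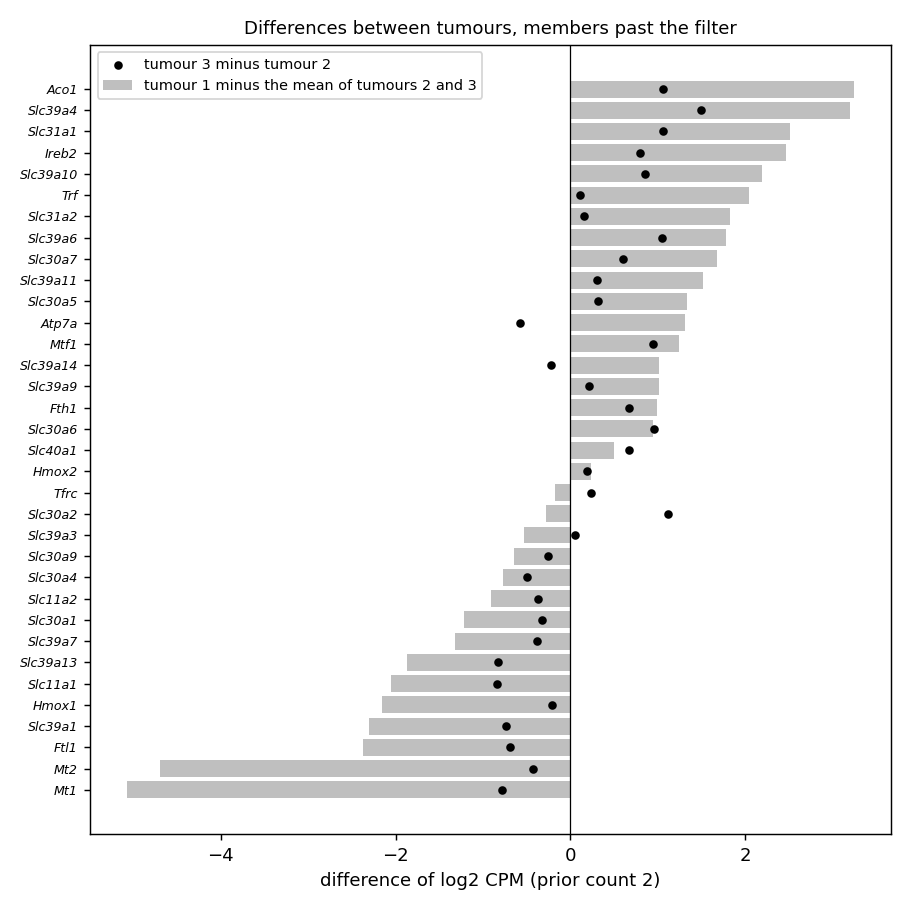
Difference of log2 CPM for each of the 34 members past the filter, with bars for tumour 1 minus the mean of tumours 2 and 3 and points for tumour 3 minus tumour 2. The bars run from 3.24 for Aco1 to −5.08 for Mt1, and for most members the point lies on the same side of 0 as its bar and nearer to it.

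The members went both ways in tumour 1. Of the 34, 19 were highest and 14 lowest in tumour 1, and these shares were not computed for all genes. Set against the mean of tumours 2 and 3, 19 members were higher in tumour 1, as were 6724 of all 12710 genes. Tumour 3 lay between tumours 1 and 2 for 29 members (85.3%, against 63.3% of all genes tested). Within lane 5, tumour 3 was at least 2-fold above tumour 2 for 5 members, Aco1, Slc30a2, Slc31a1, Slc39a4 and Slc39a6 (14.7%, against 8.81% of all genes), and at least 2-fold below it for 0 (against 7.39%). The median SD of log2 CPM was 0.87 over the members past the filter and 0.72 over all genes. By a chi-square test with Benjamini-Hochberg adjustment over all genes, the counts of 34 of 34 members varied beyond sampling noise, as did those of 94.2% of all genes, so the count says nothing particular about them.

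The direction of a member went with the make-up of its transcript, as it did for genes at large. The 19 members highest in tumour 1 had a median transcript length of 3928 bases and a GC content of 48.7%, and the 14 lowest in tumour 1 had 2598 bases and 53.2%. Across the 34 members, which share libraries and are not independent, the log2 difference of tumour 1 had a Spearman rho of −0.41 with GC content and 0.44 with length, and across 12343 genes of −0.30 and 0.24. With a linear trend on both removed from each library, 2 of the 4 members lower in tumour 1 kept their 4-fold call, Mt1 at −4.44 and Mt2 at −3.55, whereas Ftl1 moved to −1.34. Above, Aco1 and Slc39a4 kept theirs, and Trf and Slc31a2 passed. The part of transcript length and GC content in these differences was not tested.

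**Figure D4:**
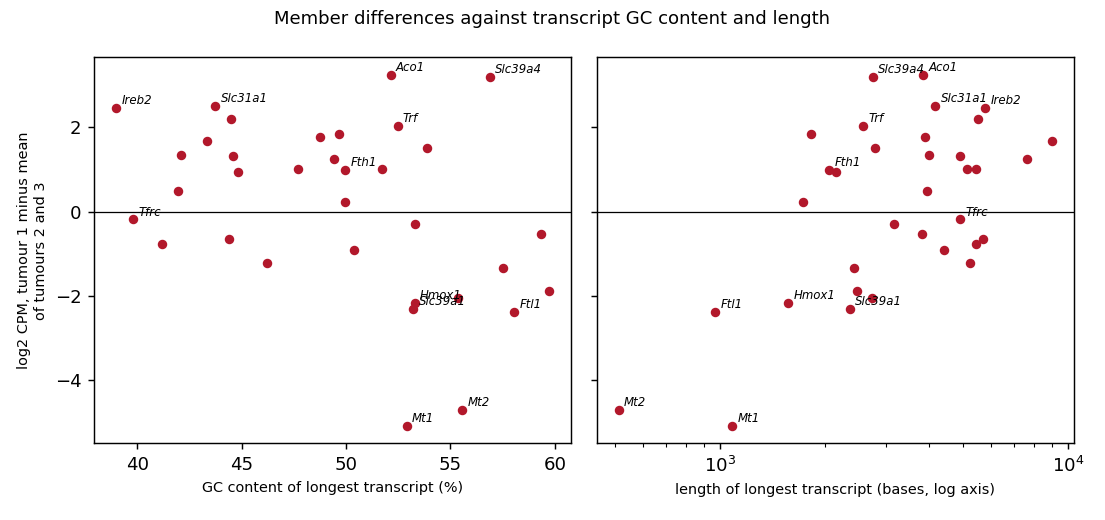
Difference of log2 CPM of tumour 1 from the mean of tumours 2 and 3 against the GC content (left) and the length (right, log axis) of the longest annotated transcript, with 1 point for each of the 34 members past the filter. Mt1, Mt2 and Ftl1, the lowest points on the right, are also among the shortest transcripts, while Slc39a4 and Aco1 lie high at a GC content above 50%.

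Other genes of metal handling were read from lists that are not part of the 45. Of 46 further iron genes 43 were in the files and 33 passed the filter. At 4-fold 3 were called above in tumour 1 (against 6.05% of all genes) and 4 below (against 8.21%). Their median log2 difference was 0.21, against 0.11 over all genes. Lcn2, the siderophore-binding lipocalin, was at 2572, 624 and 1265 CPM and highest in tumour 1. Hp, which binds free haemoglobin, was at 368, 54.9 and 37.7 CPM, the metalloreductase gene Steap4 at 14.6, 3.11 and 2.29 CPM, and the ferric reductase gene Cybrd1 at 6.71, 1.49 and 1.02 CPM. Below were Lrp1, a receptor for the haem carrier haemopexin among many ligands, at 113, 958 and 505 CPM, and the iron-sulfur cluster gene Glrx5, at 59.7, 306 and 251 CPM. The iron chaperone gene Pcbp2 was at 279.6, 183 and 239.98 CPM, within 2-fold in all 3.

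Of 25 further copper genes 21 passed. In tumour 1, 0 were at least 4-fold above (against 6.05% of all genes) and 2 below (against 8.21%). Both of the latter are chaperones. Atox1, which hands copper to Atp7a and Atp7b, was at 73.2, 480 and 388 CPM, and Cox17, which serves cytochrome oxidase, at 40.4, 286 and 187 CPM. They went opposite to the transporter genes Slc31a1 and Atp7a. Slc25a3, the mitochondrial phosphate and copper carrier, was at 324, 437 and 511 CPM, and the copper enzyme gene Loxl2 at 52.1, 405 and 151 CPM. Of 20 further zinc and manganese genes 17 passed, with 2 above in tumour 1 (against 6.05% of all genes) and 1 below (against 8.21%). Those above were the carbonic anhydrase genes Car12 at 52.9, 1.62 and 5.28 CPM and Car2 at 7.98, 1.12 and 1.14 CPM. Another carbonic anhydrase gene, Car4, was 4-fold below both others in tumour 1 and 4-fold above both in tumour 2, at 2.23, 79.5 and 13.9 CPM. The zinc protease gene Mmp14 was at 238, 905 and 483.5 CPM, the zinc dipeptidase gene Cndp2 at 59.9, 167 and 126 CPM, and the manganese enzyme gene Sod2 at 101, 114 and 104 CPM.

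Hmox1, Fth1 and Ftl1 are known targets of the oxidative stress factor Nrf2, and a list of 12 other such targets, 11 of them past the filter, was read beside them. Of the 11, 7 were above the mean of the others in tumour 1 and 4 below it, among them Srxn1, chosen after its values were seen, at 7.20, 27.96 and 20.4 CPM. In tumour 1, 5 were at least 4-fold above both others, against 6.05% of all genes, the glutathione transferase gene Gsta4 at 170, 7.46 and 20.9 CPM, Txnrd1 at 132, 10.6 and 27.8 CPM, Gsr at 76.2, 9.32 and 13.3 CPM, and the glutathione synthesis genes Gclm at 53.0, 8.08 and 10.1 CPM and Gclc at 29.0, 5.10 and 5.53 CPM. Hmox1 and Ftl1 were lowest in tumour 1, and Fth1 was highest in tumour 1. Hypoxia is a response that also bears on Tfrc, Hmox1 and the metallothioneins. Of 12 hypoxia genes 1 was at least 4-fold above in tumour 1 (against 6.05% of all genes), the oxygen sensor gene Egln3 at 93.1, 9.07 and 10.9 CPM. Ldha was at 463, 109 and 191 CPM, Pgk1 at 241, 139 and 178 CPM and P4ha1, lowest in tumour 1, at 31.98, 157 and 81.5 CPM.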

How the data were processed

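Libraries of total RNA were made with an mRNA kit and sequenced as paired reads of 50 bp, per the labels' protocols. The deposited values are estimated counts per gene symbol, Salmon read numbers per the file headers, scaled neither for depth nor for length. STAR, SAMtools, Picard and build mm10 are also named, per the submitters' processing notes, and their versions, the annotation, the strand setting and the summing to genes were not given in the sources used here. Total counts set the counting error, which is largest in tumour 2.

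Counts were rounded. Genes were kept by filterByExpr of edgeR 4.0.16 (R 4.3.3; minimum count 10, minimum total 15), which left 12710 genes, and scaled by TMM. Log2 CPM used a prior count of 2. A chi-square test set each gene's counts against the scaled totals, Benjamini-Hochberg adjusted at 0.05, and compares libraries, not conditions. It was tested on simulated data. Positions, lengths and GC contents came from GENCODE M21 (GRCm38, the assembly also named mm10), and promoters from RefSeq (GRCm38.p6). Alternatives included DESeq2 1.42.0 size factors. All members with a mean of at least 1 CPM are given per tumour. From each further list the 3 highest genes and at most 6 that are 4-fold apart from both other tumours are named. A gene that this rule takes is not reported here. Members and lists were chosen with earlier results of these data known.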

Additional observations from a re-analysis of the deposited data

How the results depend on the processing

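No paired analysis was possible because there is 1 group. The members at least 4-fold above both others in tumour 1 numbered 3 of 34, but 8 of 43 without a filter and 10 of 34 with library totals alone. They were 0 at 8-fold and 12 at 2-fold. Leaving out tumour 2 or 3 gave 4 to 7, the 7 without tumour 3. All genes moved too: 6.05% were above in the main setting, 9.88% without a filter, 16.2% with library totals alone and 22.1% at 2-fold. Those at least 4-fold below numbered 4, as they did without a filter, where 2 of the 4 were shared. They were 2 with library totals alone, 9 at 2-fold, 2 at 8-fold and 2 without the GC and length trend. Leaving out a tumour gave 4 to 7, again 7 without tumour 3. Of all genes 8.21% were below in the main setting, 6.81% without a filter and 3.60% with library totals alone. The share was 20.7% at 2-fold and 6.46% without the GC and length trend. Shares of all genes were not computed at 8-fold or with a tumour left out. Library totals alone moved the median difference of all genes in tumour 1 to 0.95, compared with 0.11, and turned the direction of Slc30a2 (0.56), Slc30a4 (0.07), Slc30a9 (0.20), Slc39a3 (0.31) and Tfrc (0.67), none of them called. Slc30a2 also turned without tumour 3 (0.28), and Slc39a3 (0.01) and Slc40a1 (−0.13) without the GC and length trend. The members 4-fold apart in tumours 2 or 3 were 0, against 0.999% of all genes. They were 1 of 35 when a mean of 1 CPM was asked for, 2 of 43 without a filter and 4 at 2-fold. For this count and the next, shares of all genes under the alternatives were not computed. Members 2-fold apart between tumours 3 and 2 were 5 of 34 (14.7%, against 16.2% of all genes). They were 2 with DESeq2 size factors, 11 with library totals alone, 9 of 43 without a filter and 0 at 4-fold. Halving that threshold leaves none and was not run. The median SD of 0.87 was 1.15 with library totals alone and 1.08 without a filter, and 0.40 to 1.20 when a tumour was left out, lowest without tumour 1. Counts past counting noise were 27 to 33 with a tumour left out. The cause of these shifts was not tested. Of 374 differences of single members, 351 moved by less than that gene's own spread between tumours, 23 by more, and 0 called ones turned. Of the 23, 16 came with library totals alone. That spread is wide where tumour 1 stands apart, so a smaller move does not mean that a 4-fold call held. Ftl1, Hmox1 and Ireb2 always moved by less, yet each lost its call under some settings. Below about 0.373 CPM, the 3 counts that a count of 0 allows in tumour 2, levels could not be told from 0 there.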

Other observations

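Slc39a8, at 9.57, 0.124 and 0.699 CPM, did not pass the count filter. It passed a filter on a mean of at least 1 CPM only through tumour 1. Its 4-fold call above both others in tumour 1 under that filter is therefore no separate support. Markers of further cell types are given as sums for tumours 1, 2 and 3. The 8 adipocyte markers summed to 447, 322 and 249.6 CPM and the 8 basal epithelial markers to 835, 446 and 314 CPM, both highest in tumour 1. The 8 fibroblast markers summed to 3999, 6475 and 3493 CPM and the 7 endothelial markers to 161, 1217 and 431 CPM, both highest in tumour 2. Of 8 neutrophil markers 7, 6 and 6 had a count, with sums of 34.1, 31.9 and 49.5 CPM and Ly6g at 0 in each tumour. Their part in the members' differences was not tested.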
